A study of Mus musculus with 14 samples.

Results

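Aminoacyl-tRNA synthetases are the enzymes that join each amino acid to its transfer RNA. The genes described here were every gene on the array whose platform symbol is a single letter followed by ars, ars1 or ars2, together with Eprs, Farsa, Farsb, Qars, Pars2 and Ears2. The rule found 72 probe sets of 35 genes, among 18193 genes named on the array. Of these 16 encode mitochondrial enzymes (symbols ending in 2) and 19 encode enzymes of the cytosol. Each gene was represented by the probe set with its highest mean signal over the 14 arrays. The enzymes for aspartate were not analysed here.

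The samples were subcutaneous white adipose tissue (scWAT) of male C57BL/6 mice aged 12 weeks. The exercised group, 7 arrays, came from animals given a wheel in the cage for 11 days, and the sedentary group, 7 arrays, from sedentary controls labelled with the same 11 days. No genetic change or drug is given for either group. Nothing in the labels tells if every array is a mouse of its own, so p-values measure the spread between arrays, which may be technical. The study asked what exercise training does to this fat depot, and Ucp1, the uncoupling protein of brown and beige fat, is a known marker of its response.

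Mitochondria translate the few proteins encoded by their own genome on their own ribosomes, with their own transfer RNAs. Nearly all of their synthetases are separate nuclear genes, made in the cytosol and imported, while the cytosolic synthetases serve the translation of all other messenger RNAs. Gars and Kars each give both a cytosolic and a mitochondrial enzyme, and mitochondrial glutamine transfer RNA is charged indirectly, so these amino acids have no gene ending in 2. In mammals several cytosolic synthetases sit in a multi-synthetase complex held by the scaffold proteins Aimp1, Aimp2 and Eef1e1. Many cytosolic synthetase genes are also activated by the transcription factor ATF4 when amino acids run short.

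Values are MAS5 signals, a linear fluorescence intensity scaled by the depositors so that every array has the same trimmed mean. Tests used limma on log2(signal + 46.7), so each log2 difference is exercised minus sedentary on that scale and understates the change of weak genes. A gene was called at an adjusted p under 0.05 over all 12944 genes tested. Array medians ran from 531.3 to 617.4. Ucp1 signal was 10273 to 51867 on the exercised arrays and 67.3 to 9989 on the sedentary arrays, and the adipocyte hormone Adipoq stood between 48833 and 69119 over all 14 arrays. Ucp1 differed by 4.67 on the log2 scale (SE 0.69, limma adjusted p = 0.00229).

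Promoters of some members, from RefSeq (GRCm38.p6), are shown as examples. The windows run from 250 bases before to 50 bases after the start, as the table gives them with the strand. Lars2 was the only member called, Iars2 is a mitochondrial member that was not called, Kars and Gars each serve both compartments, and Aars is a cytosolic enzyme with a pair of amino acid response motifs. Capitals mark matches to CGCANGCG, the core bound by nuclear respiratory factor 1 (NRF1), or to TGATGNAA, the form of the ATF4 composite element searched here, read on either strand. The matches of these motifs do not overlap.
Lars2, chr9:123366677-123366976 (+): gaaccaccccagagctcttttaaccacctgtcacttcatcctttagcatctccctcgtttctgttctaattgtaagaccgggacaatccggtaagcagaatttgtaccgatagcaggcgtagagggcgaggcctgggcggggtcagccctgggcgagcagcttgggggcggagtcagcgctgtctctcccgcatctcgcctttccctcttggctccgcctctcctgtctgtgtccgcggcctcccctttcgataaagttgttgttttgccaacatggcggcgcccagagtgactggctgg
Iars2, chr1:185329352-185329651 (-): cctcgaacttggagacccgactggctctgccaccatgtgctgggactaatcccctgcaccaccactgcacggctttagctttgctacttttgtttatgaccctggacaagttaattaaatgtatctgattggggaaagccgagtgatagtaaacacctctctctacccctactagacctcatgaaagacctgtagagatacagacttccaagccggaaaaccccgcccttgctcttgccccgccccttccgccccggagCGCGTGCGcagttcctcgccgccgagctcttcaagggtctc
Kars, chr8:112011305-112011604 (-): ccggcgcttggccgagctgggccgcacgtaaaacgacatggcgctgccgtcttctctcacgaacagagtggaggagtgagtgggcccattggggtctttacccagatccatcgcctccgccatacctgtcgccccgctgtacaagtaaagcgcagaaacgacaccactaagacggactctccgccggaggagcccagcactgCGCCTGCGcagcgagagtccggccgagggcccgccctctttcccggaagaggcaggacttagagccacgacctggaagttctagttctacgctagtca
Gars, chr6:55037751-55038050 (+): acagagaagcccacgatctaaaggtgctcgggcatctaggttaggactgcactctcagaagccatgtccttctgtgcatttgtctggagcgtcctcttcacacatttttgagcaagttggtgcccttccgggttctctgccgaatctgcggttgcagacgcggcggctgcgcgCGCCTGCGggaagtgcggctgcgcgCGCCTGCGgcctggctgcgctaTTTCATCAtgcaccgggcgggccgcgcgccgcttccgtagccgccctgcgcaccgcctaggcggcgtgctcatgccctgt
Aars, chr8:111033592-111033891 (+): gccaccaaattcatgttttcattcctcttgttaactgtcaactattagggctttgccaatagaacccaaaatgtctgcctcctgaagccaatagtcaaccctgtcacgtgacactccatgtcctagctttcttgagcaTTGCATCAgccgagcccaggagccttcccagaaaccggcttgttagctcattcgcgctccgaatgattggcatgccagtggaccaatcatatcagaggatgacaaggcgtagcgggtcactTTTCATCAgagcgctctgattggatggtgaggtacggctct
Of the 35 members, 26 had an entry in the RefSeq promoter table. The NRF1 core was in 4 of 14 mitochondrial promoters (Iars2, Mars2, Vars2 and Wars2) and in 6 of 12 cytosolic promoters (Farsa, Farsb, Gars, Kars, Mars1 and Tars), against 8.21% of the 32851 promoters in the table. The TGATGNAA form was in 0 of 14 mitochondrial promoters and in 5 of 12 cytosolic promoters (Aars, Gars, Iars, Tars and Yars), against 3.97% of the table. The motif AAGGTCA of the estrogen-related receptors was in 0 of the 26, against 4.72% of the table. A match is a description of the letters in this window and not a site.

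Of the 33 members tested (14 mitochondrial and 19 cytosolic), 1 mitochondrial gene rose and no member fell. All 33 had a mean signal above the filter of 389.8 in both groups. Among all genes 716 were called (5.53%), 518 of them higher and 198 lower. The 14 mitochondrial enzymes had a median log2 difference of 0.16 (range -0.07 to 0.95), and 12 of the 14 differences were above 0. The 19 cytosolic enzymes had a median of -0.08 (range -0.23 to 0.20), and 5 of the 19 were above 0. Among all genes 45.0% of differences were above 0, and the median difference was -0.03. These class figures are descriptions, and no test of one class against the other was made.

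**Figure D1:**
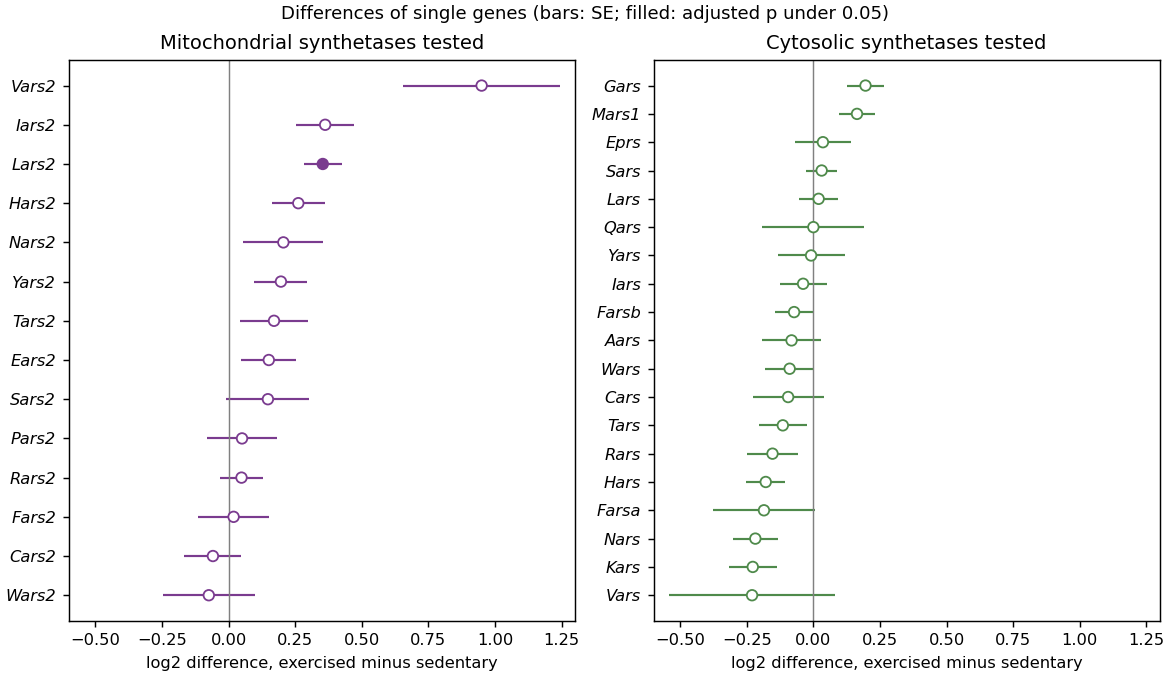
Log2 difference of each synthetase gene between exercised and sedentary arrays, with its standard error, mitochondrial enzymes on the left and cytosolic ones on the right, filled where the adjusted p was under 0.05. Of the 14 mitochondrial enzymes tested 12 lie above 0, and of the 19 cytosolic enzymes 5 do.

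At an unadjusted p under 0.05, 4 mitochondrial members were higher (Lars2, Iars2, Vars2 and Hars2) and 0 were lower. By the same measure 2 cytosolic members were higher (Gars and Mars1) and 3 were lower (Kars, Nars and Hars). Over all genes 11.3% were higher and 10.5% were lower at that level. The share of genes with every exercised array above every sedentary array was 1.95%, and the share with every exercised array below was 0.734%. Lars2 was the 1 member in the first of these sets, and no member was in the second.

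Lars2 charges mitochondrial leucine transfer RNA. Its signal was 3553 at the lowest, 3623 at the median and 4044 at the highest on the exercised arrays, against 2471, 3042 and 3180 on the sedentary arrays. The groups did not overlap. The mean was 3728 ± 192 on exercised arrays and 2916 ± 274 on sedentary arrays (SD, n = 7 each). Lars2 rose by 0.35 on the log2 scale (SE 0.07, limma adjusted p = 0.0101). Exercised arrays 1 and 4, the lowest 2 of the exercised group for skeletal muscle genes, gave Lars2 signals of 3586 and 3571. The call was lost when the muscle gene level entered the fit as a covariate (log2 difference 0.32, SE 0.09, limma adjusted p = 0.0765). The part of muscle RNA in the Lars2 difference was not tested beyond that fit. The other 2 Lars2 probe sets were below the signal filter and had differences of -0.23 and 0.81.

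**Figure D2:**
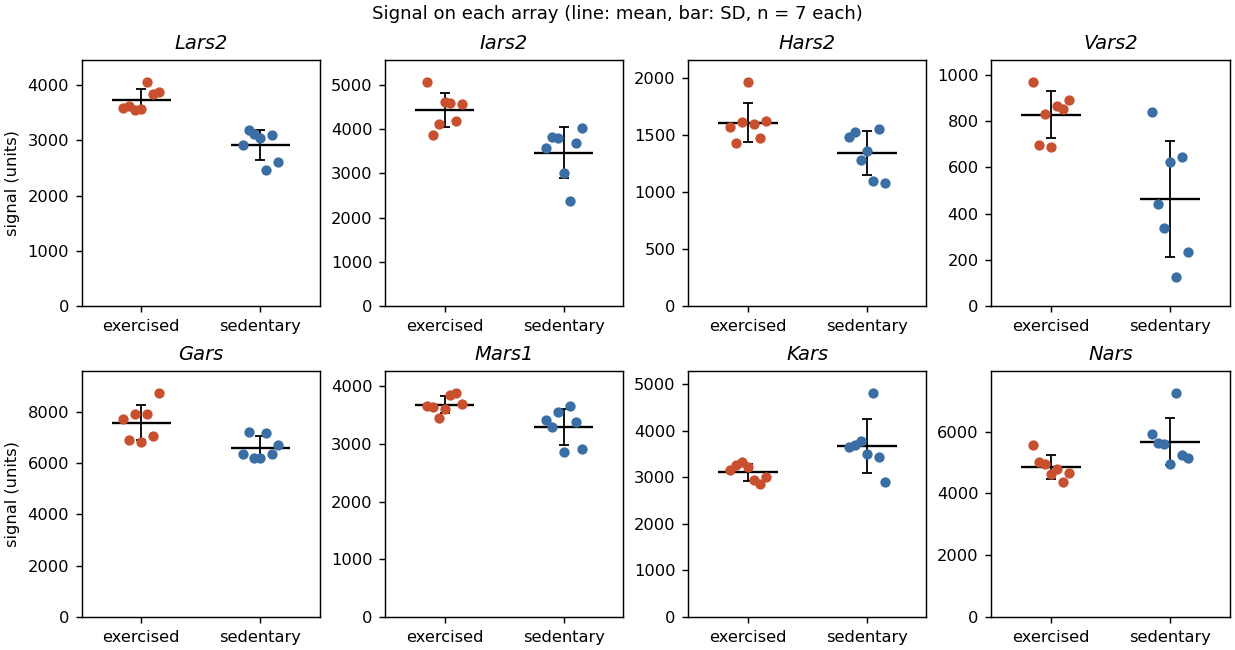
MAS5 signal of 8 synthetase genes on each of the 7 exercised and 7 sedentary arrays, 1 point per array, with a line at the mean and a bar for the SD. The 7 exercised points for Lars2 lie above all 7 sedentary points, while the groups overlap for the other genes drawn.

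Vars2, which charges mitochondrial valine transfer RNA, had the largest difference among the members. Its signal was 687 at the lowest, 851 at the median and 967 at the highest on the exercised arrays, against 126, 441 and 838 on the sedentary arrays. The groups overlapped, and the sedentary arrays were spread far more widely. The difference was 0.95 (SE 0.29, limma adjusted p = 0.0726), so it was not called. It was called in 1 of 26 alternative settings, without sedentary array 1 (1.11, adjusted p = 0.0372). It was 0.72 without sedentary array 5 (adjusted p = 0.0772) and 0.54 without sedentary arrays 5 and 7, and was called in neither. The other Vars2 probe set was below the signal filter and differed by 0.47.

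Iars2, the mitochondrial isoleucine enzyme, had signals of 3875, 4572 and 5049 (lowest, median, highest) on the exercised arrays, against 2384, 3686 and 4014 on the sedentary arrays. All but 1 exercised array stood above the highest sedentary array. The difference was 0.36 (SE 0.11, limma adjusted p = 0.0635) and was not called. It was called in 3 of 27 alternative settings, one of them without sedentary array 7 (0.40, adjusted p = 0.0439), and ranged from 0.02 to 0.41 over them. A second Iars2 probe set differed by -0.32 (SE 0.30), and the mean of the gene's probe sets by 0.02. Its mean signal was 462, near the filter of 389.8, against 3946 for the chosen probe set. The difference of Iars2 thus depended on which probe set was read, and the second one was weak and imprecise. Hars2, which charges mitochondrial histidine transfer RNA, averaged 1610 ± 170 on exercised arrays and 1342 ± 195 on sedentary arrays (SD, n = 7 each), a difference of 0.26 (SE 0.10, limma adjusted p = 0.145). All 7 exercised arrays stood above the sedentary median for Hars2, as they did for Lars2, Vars2 and Iars2. The same held for Gars and Mars1 of the cytosolic class, and the share over all genes was not counted.

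The other mitochondrial enzymes differed by less. Nars2 (asparagine) differed by 0.21 (SE 0.15), Yars2 (tyrosine) by 0.20 (SE 0.10), Tars2 (threonine) by 0.17 (SE 0.13), Ears2 (glutamate) by 0.15 (SE 0.10) and Sars2 (serine) by 0.15 (SE 0.16), with limma adjusted p from 0.263 for Yars2 to 0.608 for Sars2. Pars2 (proline), Rars2 (arginine) and Fars2 (phenylalanine) differed by 0.05, 0.05 and 0.02. Cars2 (cysteine) and Wars2 (tryptophan) had differences below 0, at -0.06 and -0.07. None of these passed the threshold. Aars2 (alanine) and Mars2 (methionine) lay below the signal filter and were not tested, at mean signals of 144 on exercised and 123 on sedentary arrays for Aars2 and of 256 and 252 for Mars2.

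Among the enzymes that serve both compartments, Gars (glycine) averaged 7583 ± 687 on exercised arrays and 6606 ± 440 on sedentary arrays (SD, n = 7 each), a difference of 0.20 (SE 0.07, limma adjusted p = 0.118). Kars (lysine) differed by -0.23 (SE 0.09, adjusted p = 0.161). Kars signals were 2847, 3157 and 3324 (lowest, median, highest) on the exercised arrays, against 2887, 3660 and 4808 on the sedentary arrays. No exercised array was above the sedentary median for Kars, and all 7 were above it for Gars. These 2 genes therefore had differences of opposite sign, and neither was called.

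Kars is also a subunit of the multi-synthetase complex, along with Eprs, Iars, Lars, Mars1, Qars and Rars. Mars1, the cytosolic methionine enzyme, averaged 3686 ± 147 on exercised arrays and 3296 ± 306 on sedentary arrays (SD, n = 7 each), a difference of 0.16 (SE 0.07, limma adjusted p = 0.176). Rars (arginine) differed by -0.15 (SE 0.10, adjusted p = 0.369), with no exercised array above the sedentary median. Eprs, which joins glutamate and proline, differed by 0.04, Lars (leucine) by 0.02, Qars (glutamine) by -0.00 and Iars (isoleucine) by -0.04. The scaffold proteins were also not called: Eef1e1 differed by -0.23 (SE 0.10, adjusted p = 0.216), Aimp1 by -0.19 (adjusted p = 0.373) and Aimp2 by 0.24 (SE 0.22, adjusted p = 0.543). Members of this complex therefore differed in sign from one another and none passed the threshold.

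The free cytosolic enzymes included Nars (asparagine), which averaged 4850 ± 385 on exercised arrays and 5675 ± 767 on sedentary arrays (SD, n = 7 each), a difference of -0.22 (SE 0.08, limma adjusted p = 0.15). Hars (histidine) averaged 5157 ± 512 on exercised arrays and 5829 ± 370 on sedentary arrays, a difference of -0.18 (SE 0.07, adjusted p = 0.17). Vars (valine) signals were 693, 1726 and 1822 on exercised arrays (lowest, median, highest), against 643, 1752 and 3541 on sedentary arrays, a difference of -0.23 with a SE of 0.31 (adjusted p = 0.694). The Vars medians are close, and a few sedentary arrays are high. Farsa and Farsb, the alpha and beta subunits of the phenylalanine enzyme, differed by -0.19 and -0.07. Tars (threonine), Cars (cysteine), Wars (tryptophan), Aars (alanine), Yars (tyrosine) and Sars (serine) differed by -0.11, -0.10, -0.09, -0.08, -0.01 and 0.03. None of these passed the threshold.

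**Figure D3:**
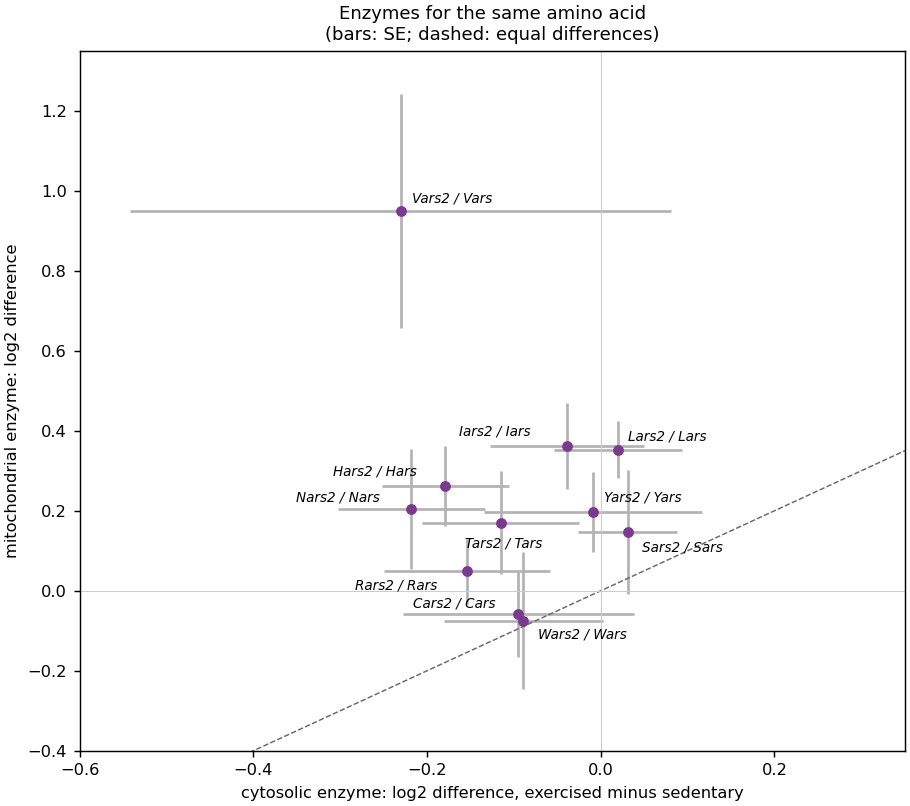
Log2 difference (exercised minus sedentary) of the mitochondrial enzyme on the vertical axis against that of the cytosolic enzyme for the same amino acid on the horizontal axis, with bars for the SE and a dashed line where both are equal. The 11 pairs with 1 gene for each compartment and both genes tested are drawn, and all lie above the line.

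For 11 amino acids 1 mitochondrial and 1 cytosolic gene encode the enzymes and both were tested, so each pair can be set against itself within an array. Phenylalanine, glutamate and proline are not among the 11, since Farsa and Farsb are subunits of 1 enzyme and Eprs serves both glutamate and proline. The mitochondrial difference was above the cytosolic one in 11 of the 11 pairs, by a median of 0.29 (range 0.01 to 1.18). The gap was 1.18 (SE 0.48) for valine, 0.44 (SE 0.12) for histidine, 0.42 (SE 0.19) for asparagine, 0.40 (SE 0.19) for isoleucine and 0.33 (SE 0.09) for leucine. It was 0.01 (SE 0.17) for tryptophan and 0.04 (SE 0.13) for cysteine. The gap between the members of a pair was not tested. Without sedentary array 5 the mitochondrial difference was above the cytosolic one in 9 of the 11 pairs, by a median of 0.15, with gaps of -0.01 for tryptophan and -0.03 for cysteine. In that setting the gap was 0.77 for valine, 0.37 for histidine, 0.28 for asparagine, 0.25 for isoleucine and 0.28 for leucine. Outside the 11, the gap was 0.20 for Fars2 against Farsa, 0.09 for Fars2 against Farsb, 0.12 for Ears2 against Eprs and 0.01 for Pars2 against Eprs. Without sedentary array 5 these 4 gaps were -0.05, -0.03, 0.10 and 0.02. The methionine pair ran the other way (-0.16, SE 0.17), with Mars2 under the signal filter. The alanine gap was 0.23 (SE 0.15), with Aars2 also under the filter. Without sedentary array 5 the methionine gap was -0.17 and the alanine gap 0.15.

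One sedentary array stood apart, for these genes and for others. Its highest correlation with any other array, 0.953, was the lowest of the 14 arrays. It also had the highest cytosolic ribosomal protein level, 14.44, and the lowest complex I level, 13.39. This array, sedentary array 5, gave the highest signal of all 14 arrays for 13 of the 19 cytosolic enzymes. It gave the lowest for 6 of the 16 mitochondrial enzymes. The share of all genes with their highest or lowest signal on it was not counted. The mean log2 level of the cytosolic enzymes was 11.60 to 11.76 on the exercised arrays, while on sedentary array 5 it was 12.06 and on the other sedentary arrays 11.60 to 11.76. That array also had the highest macrophage marker level, 13.66. The other sedentary arrays were at 12.78 to 13.41 and the exercised arrays at 12.63 to 13.04. Its mature adipocyte marker level, 14.44, was the lowest. The other sedentary arrays were at 14.99 to 15.36 and the exercised arrays at 15.17 to 15.58. Its lymphocyte marker level, 12.43, was the highest of the 14 arrays. Its part in the results was not tested. Without it the cytosolic median was -0.01 with 7 of 19 above 0, and the mitochondrial median was 0.14 with 11 of 14 above 0, while Lars2 differed by 0.32 (SE 0.06, limma adjusted p = 0.0101).

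**Figure D4:**
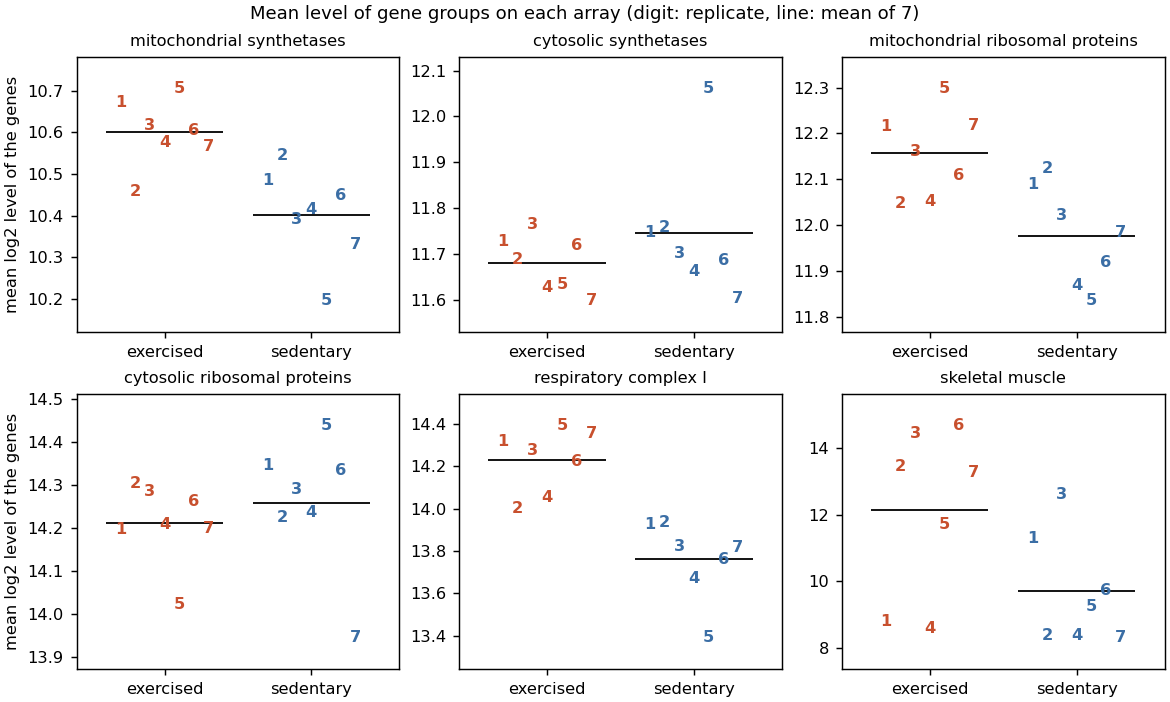
Mean log2 level of the mitochondrial and cytosolic synthetases, the mitochondrial and cytosolic ribosomal proteins, complex I and skeletal muscle genes on each array, drawn as its replicate number, with a line at the mean of 7. Sedentary array 5 has the highest cytosolic level, 12.06, and the lowest mitochondrial level, 10.20.

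The mean log2 level of the mitochondrial enzymes was 10.60 ± 0.08 on exercised arrays and 10.40 ± 0.11 on sedentary arrays (SD, n = 7 each), with ranges of 10.46 to 10.70 and 10.20 to 10.54 that overlap. For the cytosolic enzymes it was 11.68 ± 0.06 on exercised arrays and 11.75 ± 0.15 on sedentary arrays, with ranges of 11.60 to 11.76 and 11.60 to 12.06. In bulk tissue, fewer cells of a type and less RNA per cell cannot be told apart.

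Marker lists of adipocytes and other cells were read on the same arrays. Of 14 thermogenic adipocyte genes tested, 14 had positive differences (median 1.99), 9 rose and 0 fell, and their mean log2 level was 11.33 to 12.90 on exercised arrays and 8.93 to 11.28 on sedentary arrays. The part of thermogenic adipocytes in the synthetase values was not tested. Of 28 listed skeletal muscle genes 25 were tested, all 25 had positive differences (median 2.72) and 0 were called, and their mean log2 level was 8.59 to 14.68 on exercised arrays and 8.32 to 12.60 on sedentary arrays. The muscle creatine kinase gene Ckm, 479.8 to 64891 on exercised arrays and 295.8 to 29757 on sedentary arrays, was at 0 on no array. The part of muscle RNA in the synthetase values was not tested, beyond the fits with the covariate. The 15 lymphocyte genes tested had a median difference of -0.60, with 0 positive and 0 called. The 18 macrophage genes had a median of -0.34, with 0 positive and 1 lower. All 13 mature adipocyte genes tested had positive differences (median 0.19), and 0 were called. Over all genes 45.0% of differences were positive. The part of these cells in the synthetase values was not tested.

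Genes of the translation apparatus around the synthetases were read from lists. Over all 12944 genes tested, 518 were called higher and 198 lower. Of 12 mitochondrial translation factors tested, 5 rose and 0 fell, with 10 positive differences and a median difference of 0.19. Gfm1, a mitochondrial elongation factor G, rose by 0.58 (SE 0.10, limma adjusted p = 0.00352), and Tufm, the mitochondrial elongation factor Tu, by 0.41 (SE 0.08, adjusted p = 0.0101). Mtif2, the initiation factor, Gfm2, which acts in ribosome recycling, and Lrpprc, which stabilises mitochondrial messenger RNA, rose by 0.31, 0.42 and 0.36 (adjusted p = 0.0237, 0.0368 and 0.0499). Among the factors not called, Tsfm differed by 0.10 (limma adjusted p = 0.572) and Mtrf1l by -0.25 (adjusted p = 0.198). Gfm1 was called in 27 of 27 alternative settings, Tufm in 26, Mtif2 in 23, Gfm2 in 13 and Lrpprc in 8. The mitochondrial ribosomal proteins had 15 of 76 higher and 0 lower, with a median of 0.17, and respiratory complex I had 29 of 34 higher and 0 lower, with a median of 0.51.

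The 4 tested partners that finish the charging of mitochondrial transfer RNA had differences of 0.02 to 0.09 and none was called, among them Qrsl1, Gatb and Gatc of the glutamine route and Mtfmt, which formylates methionine. Of 18 mitochondrial transfer RNA processing genes 0 were called (median 0.09), and of 8 cytosolic elongation and termination genes 0 were called (median -0.03). Of 45 cytosolic ribosomal proteins 0 were called, with 7 positive differences and a median of -0.10.

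The amino acid response, the gene programme driven by ATF4 that also reaches cytosolic synthetases, had 0 of 27 higher and 2 of 27 lower. Nupr1, a stress-responsive transcription regulator, fell by 0.55 (SE 0.13, limma adjusted p = 0.0258) and Mthfd2, a mitochondrial folate enzyme, fell by 0.43 (SE 0.12, adjusted p = 0.0399). Nupr1 was called in 21 and Mthfd2 in 12 of 27 alternative settings. Atf4 itself differed by 0.03 (adjusted p = 0.882), Asns (asparagine synthetase) by 0.19 (adjusted p = 0.452), Ddit3 by -0.17 (adjusted p = 0.523), Trib3 by -0.07 (adjusted p = 0.824) and Chac1 by 0.93 (adjusted p = 0.0972). The 5 cytosolic promoters with a TGATGNAA match belong to Aars, Gars, Iars, Tars and Yars, whose differences were -0.08, 0.20, -0.04, -0.11 and -0.01.

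Other probe sets of the same genes gave a check on the choice of probe set. Past the filter there were 25 further probe sets for 17 genes, and 20 of them had the sign of the chosen one. The sign was the same for 15 of 17 probe sets of cytosolic enzymes and for 5 of 8 of mitochondrial enzymes. Of the 8 for mitochondrial enzymes 6 were positive and 1 was called, the second probe set of Yars2, at 0.31 (SE 0.08, limma adjusted p = 0.0491 over all probe sets). Over all probe sets 2.78% were called higher. Of the 17 for cytosolic enzymes 5 were positive and 0 were called. A second Fars2 probe set differed by 0.45 (SE 0.14, adjusted p = 0.0844 over all probe sets), against 0.02 for the one chosen. For 5 members (Aars, Farsb, Iars, Qars and Yars2) the chosen probe set carries a suffix that marks probes shared with other transcripts, so these values are uncertain.

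**Figure D5:**
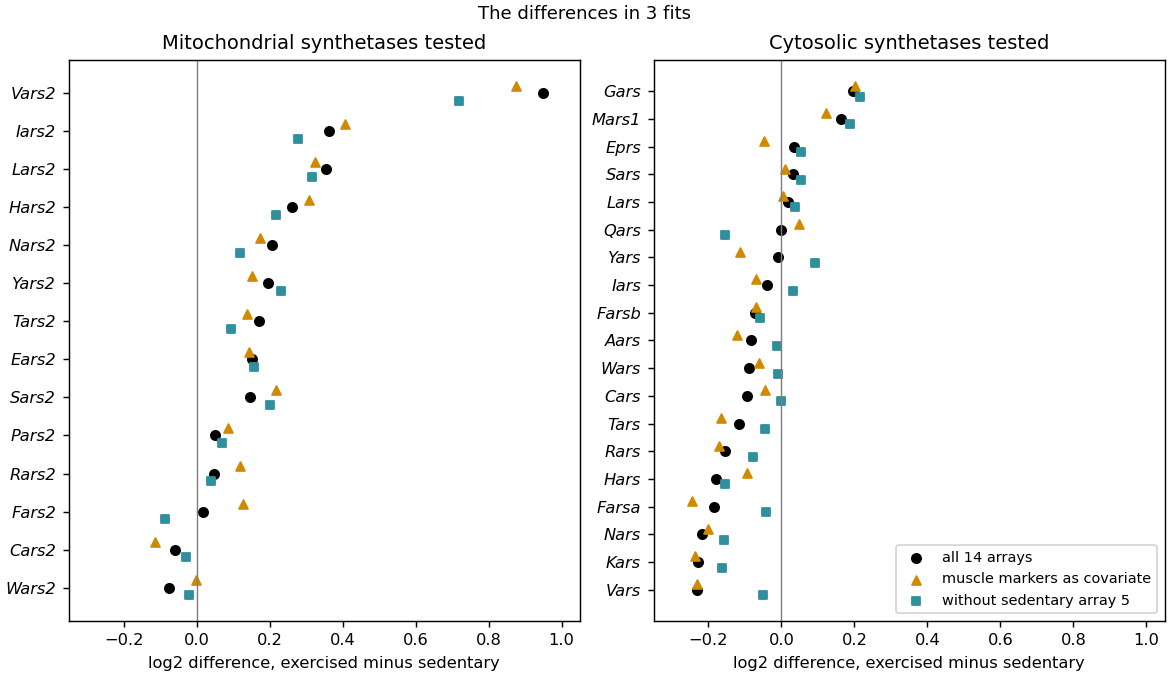
Log2 difference (exercised minus sedentary) of each synthetase tested with all 14 arrays (circles), with the muscle gene level as a covariate (triangles) and without sedentary array 5 (squares). The cytosolic median is -0.08, -0.07 and -0.01 in these 3 fits, and the mitochondrial median 0.16, 0.15 and 0.14.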

How the data were processed

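Per the labels' protocols, scWAT RNA was turned into biotinylated cRNA for Affymetrix arrays. The submitters' processing notes name MAS5 as the source of the deposited values, a fluorescence intensity on a linear scale for each of 45101 probe sets on 14 arrays; its version is not given in the sources used here. The trimmed mean was 1500 on every array. Signals ran from 0.1 to 112160, and the number of arrays limits the precision.

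Groups came from the group label. Genes were named through the platform annotation (34945 probe sets with 1 symbol, 932 with several, 9160 with none), and 34741 were updated by Entrez identifier with RefSeq (GRCm38.p6). Signals were used as log2(signal + 46.7), the 10th percentile of all values. Probe sets with a mean under 389.8 (the 40th percentile) and 64 controls were left out, leaving 27022. The highest-mean probe set stood for each of 12944 genes. The comparison used R 4.3.3 and limma 3.58.1 (lmFit, eBayes with trend), two-sided, with Benjamini-Hochberg adjustment and a threshold of 0.05. Scripts were tested on simulated data.

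Signals by array were given for members called and for the 2 members of each class with the largest differences among those not called. All other members were named with their differences, and pathway genes were named from gene lists. The members and lists were chosen with earlier results of these data known. Alternatives covered normalisation, pseudocount, filter, choice of probe set, trend, array weights, a replicate block, a muscle covariate and each array left out. Deviations of arrays with the same replicate number had correlations from -0.43 to 0.38. For replicates 3, 4 and 7 these were 0.38, 0.29 and 0.33, and the sedentary array of the same number was the best match. The rest were below 0. With these mixed values the numbers were not taken as pairs.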

Additional observations from a re-analysis of the deposited data

Results flagged for a closer look

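In groups of 7 arrays, the gap between the highest or lowest array and its nearest neighbour was compared with the range of the group, and 9 of 70 gene groups passed Dixon's 95% critical value. The level of about 1 in 20 by chance holds for a single check. The genes were read on the same arrays, so the checks were not independent. The 9 of 70 therefore cannot be set against that level. The share over all genes was not counted. Sedentary array 5 accounted for 8 of the 9. It was the highest of its group for Cars (1810), Iars (5812), Nars (7244), Rars (5651), Tars (3635), Wars (3354) and Yars (2413), and the lowest for Nars2 (756). Exercised array 4 was the highest of its group for Hars2 (1961).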

How the results depend on the processing

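Over the 27 alternatives the direction of Lars2 held, at 0.28 to 0.39 on the log2 scale, and it was called in 25. It was lost with the replicate block (0.35, adjusted p = 0.0868) and with the muscle covariate (0.32, adjusted p = 0.0765). With the replicate block 161 genes and 0 mitochondrial members were called, and with the muscle covariate 224 genes and 0. Arrays with the same number correlated best with each other in 3 of 7 cases. Leaving out 1 array gave 402 to 853 genes called and 1 to 2 mitochondrial members. Array weights, which added Iars2, gave 2 mitochondrial members, as did leaving out sedentary arrays 5 and 7. For these 2 arrays the highest correlation with any other array was 0.953 and 0.954, the lowest of all arrays. Sedentary array 7 also had the lowest thermogenic adipocyte level of all arrays, 8.93. Its lymphocyte marker level, 8.52, was the lowest of the sedentary arrays. Centring on array medians gave 547 genes higher and 86 lower, against 518 and 198 as reported, and 7 of 19 cytosolic members positive. No called member changed sign, and uncalled members did so 0 to 4 times per alternative. Leaving Gars and Kars out of the cytosolic class, an alternative chosen after seeing the data, left its median at -0.08. The settings for the pathway genes outside the family were also added after seeing the data. The causes were not tested.

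Array number and the MAS5 scaling limit these results. Scaling removes differences in total RNA, and weak genes such as Aars2 and Mars2 could not be tested under the filter.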
